A study of Mus musculus with 4 samples.

Results

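Cholesterol synthesis and efflux genes were followed through the leukocytes of mouse pancreatic tumours after treatment with a STING agonist, an LTbR agonist or both. The set held 35 genes of the 33696 in the deposited count matrices, namely 19 genes of the synthesis pathway, 5 of sterol sensing, 5 of liver X receptor (LXR) signalling and efflux, and 6 of storage, transport and oxysterol production. The genes were chosen from pathway knowledge by a list that was drawn up with earlier results of these same libraries known, so that every level and ratio given here is a description and none is independent evidence for the choice of genes.

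Cells make cholesterol from acetyl-CoA through the mevalonate pathway, and the same pathway supplies isoprenoids for protein prenylation. When sterol in the endoplasmic reticulum is low, the carrier SCAP takes SREBP transcription factors to the Golgi for cleavage, and the freed fragment turns on the synthesis genes; INSIG proteins hold the complex back when sterol is plentiful. When oxysterols build up, LXR turns on the exporters ABCA1 and ABCG1 and the ubiquitin ligase MYLIP. Proliferating lymphocytes raise synthesis to build membrane, and tumour macrophages take up lipid from dying cells and export it.

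The libraries were made from live CD45+ cells sorted from subcutaneous tumours of KPC, a pancreatic cancer line derived from genetically engineered Pdx1-Cre mice, grown in wild-type C57BL/6 mice. One library came from untreated mice, one from mice with ADU-S100, a cyclic dinucleotide that activates STING, put into the tumour, one from mice given the agonistic LTbR antibody 4H8 intraperitoneally (anti-LTbR), and one from mice given both (combination). All 4 groups carried the same transplanted tumour line, and tumours were pooled within a group, so that mice cannot be told apart. The study's methods speak of 2 separate experiments, and its single-cell data were deposited in more than 1 series. Only these 4 libraries were analysed here, their cells carry no mark of the experiment they came from, and each group was treated as 1 sample. With 1 library per group there was no replicate in these data, no test was possible between groups, and no difference below has a replicate check.

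Levels are counts scaled to 1000000 UMIs of a cell class in a library (CPM), with immunoglobulin genes left out of the total. Ratios are log2 ratios to the untreated library with exact binomial 95% intervals of the summed UMIs. These intervals cover counting error only and do not cover differences between mice or between library preparations. A gene was counted as past the limit when it had 50 or more UMIs over the 2 libraries, differed 1.5-fold or more and had an interval that excluded equality. Levels were compared for 1 gene between libraries or cell classes, never between genes, because the counts were not scaled by transcript length.

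After filtering, 7524, 13444, 13223 and 14667 cells remained from the untreated, ADU-S100, anti-LTbR and combination libraries, of 8730, 15404, 14634 and 16322 deposited, with a median of 4616, 3110, 3738 and 2200 UMIs per cell. Ptprc, which encodes CD45, was detected in 83.5 to 89.7% of the deposited cells, before filtering. Pairs of libraries shared 34 to 83 cell barcodes. T cells numbered 1395, 603, 2017 and 1669 in this order, macrophages and monocytes 4066, 5783, 7329 and 8477, dendritic cells (DCs) 673, 506, 930 and 914, and plasma cells 104, 64, 396 and 824. The T cell marker Cd3e stood at 528 to 686 CPM in the T cells and at most 1.79 CPM in the macrophages, and the members were kept out of the genes used for clustering. The T cells, DCs and plasma cells also held RNA of macrophage markers, given beside the results that it moves with. Neutrophil RNA also differed between libraries. The 10 neutrophil markers, with 7 to 10 of them detected, summed in T cells to 0.373, 1.09, 0.264 and 0.43% of their level in neutrophils (untreated, ADU-S100, anti-LTbR and combination). The share was 1.12, 1.81, 1.35 and 1.85% in macrophages, 2.83, 4.56, 2.54 and 2.67% in DCs and 0.381, 1.35, 0.208 and 0.687% in plasma cells. The summed share was thus higher with ADU-S100 than untreated in all 4 classes, and in macrophages higher in all 3 treated libraries. Single markers in DCs gave another order, with S100a8 at 1.34, 207, 45.6 and 20.5 CPM and S100a9 at 2.3, 360, 58.7 and 20.5 CPM. Unlike the sum, both were higher in all 3 treated libraries than untreated. The part of neutrophil RNA in the results was not tested.

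Promoter sequence was taken from RefSeq (GRCm38.p6), where 29 of the 35 genes had an entry, with 38 promoters in all. No promoter entry was matched for Fdps, Fdft1, Sqle, Abcg1, Npc1 and Stard4. The CCAAT box (CCAAT on either strand, the site of NF-Y, which works beside SREBP) was present in 24 of the 38 promoters (63.2%), against 37.4% of all 32851 promoters of the same length in the table. It was in 15 of 19 synthesis promoters (78.9%) and in 3 of 4 promoters of storage, transport and oxysterol genes (75%). Of the sterol sensing promoters 5 of 10 held it (50%), and of the LXR and efflux promoters 1 of 5 (20%). The sterol regulatory element core TCACNCCAC was found in 1 of the 38 (2.63%), against 1.24% of all promoters. A direct repeat of AGGTCA spaced by 4 bases, the textbook LXR site, was found in none, against 0.0152% of all promoters. None of the 3 motifs contains another, and both strands were searched. The 4 promoters below belong to genes past the limit in T cells, macrophages or both. Of these classes, Hmgcs1 was past it in macrophages alone and Insig1 in T cells alone. The 250 bases before the start site are shown with each motif in capitals. The capitals ATTGG mark CCAAT on the opposite strand. Binding at these motifs was not measured in these libraries, and a match is a description of the sequence.
Hmgcs1, chr13:119690101-119690350, plus strand: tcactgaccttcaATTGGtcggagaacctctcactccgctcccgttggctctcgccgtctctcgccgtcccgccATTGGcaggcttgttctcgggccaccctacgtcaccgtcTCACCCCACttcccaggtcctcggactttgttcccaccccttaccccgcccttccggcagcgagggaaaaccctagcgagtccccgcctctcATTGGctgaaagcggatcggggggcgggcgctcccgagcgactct
Idi1, chr13:8885356-8885605, plus strand: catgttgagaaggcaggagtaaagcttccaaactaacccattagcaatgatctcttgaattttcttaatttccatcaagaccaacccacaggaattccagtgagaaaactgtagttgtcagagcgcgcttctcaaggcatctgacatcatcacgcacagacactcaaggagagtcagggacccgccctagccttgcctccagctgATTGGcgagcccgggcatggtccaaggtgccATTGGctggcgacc
Cyp51, chr5:4104698-4104947, minus strand: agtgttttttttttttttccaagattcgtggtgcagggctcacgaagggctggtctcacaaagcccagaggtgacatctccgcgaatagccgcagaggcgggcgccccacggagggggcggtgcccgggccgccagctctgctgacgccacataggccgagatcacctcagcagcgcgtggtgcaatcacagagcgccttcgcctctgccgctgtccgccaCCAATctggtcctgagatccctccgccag
Insig1, chr5:28071162-28071411, plus strand: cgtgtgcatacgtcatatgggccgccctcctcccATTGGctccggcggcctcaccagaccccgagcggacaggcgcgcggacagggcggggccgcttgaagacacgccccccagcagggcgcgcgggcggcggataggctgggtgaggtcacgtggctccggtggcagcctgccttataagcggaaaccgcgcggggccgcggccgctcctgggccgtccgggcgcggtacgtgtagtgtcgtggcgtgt

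Hmgcs1 encodes the synthase that makes HMG-CoA, Idi1 isomerises the first isoprenoid unit, Cyp51 demethylates lanosterol, and Insig1 is the feedback inhibitor of SREBP cleavage and itself a target of SREBP. The Hmgcs1 promoter held the sterol regulatory element core 137 bases before the start, with CCAAT boxes 237, 176 and 45 bases before it. The Idi1 promoter held CCAAT boxes 45 and 14 bases before the start, the Cyp51 promoter 1 at 29 bases and the Insig1 promoter 1 at 216 bases.

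Summed over the 19 synthesis genes, dendritic cells held the highest level of the 4 classes in every library. In the untreated library the sum was 764 CPM in DCs, 516 in macrophages and monocytes, 433 in plasma cells and 396 in T cells, while natural killer cells stood at 285 and neutrophils at 170. Among the dendritic cells, the conventional type 1 (cDC1)-like cells had the highest sum at 894 CPM. The summed level was below the untreated library in all 4 classes and all 3 treated libraries, although the interval for DCs with ADU-S100 included equality. Scaled by total UMIs, the largest of these differences was in the macrophages with ADU-S100, at a log2 ratio of −0.54, and the smallest was in DCs with ADU-S100, at −0.05 (interval −0.11 to 0.02).

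**Figure D1:**
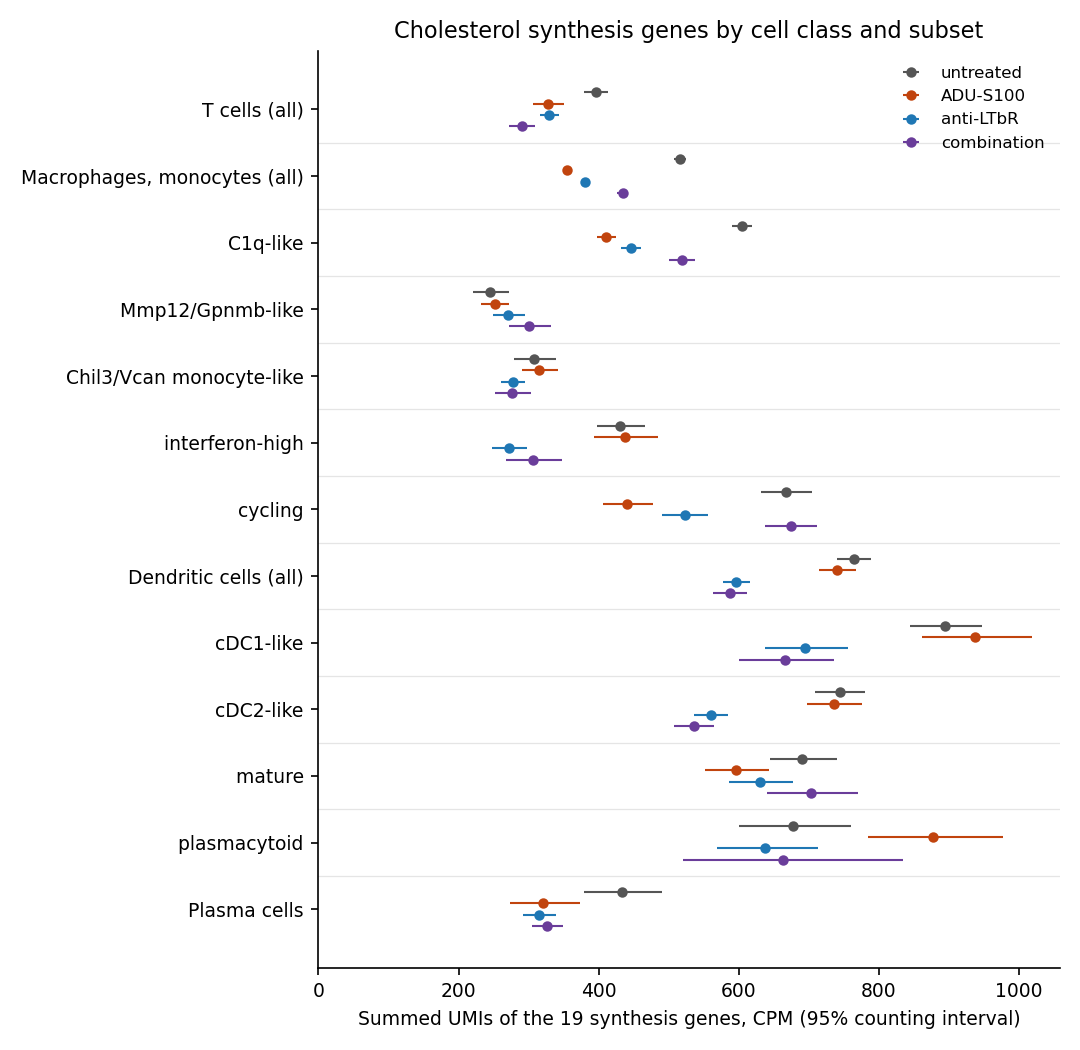
Summed CPM of the 19 synthesis genes (horizontal axis) in each cell class and subset (rows), with 1 point per library and exact Poisson 95% intervals for counting error. The cDC1-like cells stand highest in the untreated library at 894 CPM, and the Mmp12 and Gpnmb-like macrophages lowest of the rows shown at 245 CPM.

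In T cells the summed level of the synthesis genes stood lower in every treated library than in the untreated one, lowest in the combination. Single synthesis genes did not all follow this order. The exporter Abcg1 and the LXR target Mylip stood higher with anti-LTbR and the combination. The makeup of the T cells moved with these levels: the cluster led by Lef1, Tcf7 and S1pr1, low in synthesis and high in Abcg1 and Mylip, was 17.1% of untreated T cells and 31.8, 41.3 and 44.9% of the treated ones. The summed synthesis level was 396 CPM untreated, 328 with ADU-S100, 330 with anti-LTbR and 291 with the combination. The log2 ratios were −0.27 (interval −0.39 to −0.16), −0.26 (−0.35 to −0.18) and −0.45 (−0.56 to −0.34). With each of the 7 clusters weighted by its share of the untreated UMIs, a way chosen after seeing the data, they were −0.144, −0.0756 and −0.275. Of the synthesis genes with 50 or more UMIs, 15 of 17, 16 of 18 and 14 of 16 had a ratio below 0, against 60.1, 49.2 and 57.0% of all genes. Their interval lay below equality for 4, 4 and 7, against 16.0, 15.8 and 16.8% of all genes.

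Counted by the limit, 0 of 31 members were higher and 4 lower in T cells with ADU-S100, where 3.63% of all 9713 genes counted were higher and 5.97% lower. With anti-LTbR 2 of 32 members were higher and 5 lower, against 4.69% and 4.49% of all genes. With the combination 3 of 30 were higher and 7 lower, against 4.07% and 4.67%. The median log2 ratio of the synthesis genes was −0.27, −0.24 and −0.49, beside −0.07, 0.00 and −0.05 over all genes. The median of the LXR and efflux genes was 0.15, 0.43 and 0.67.

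Cyp51 stood at 46.7 CPM in untreated T cells, 23.6 with ADU-S100, 26.0 with anti-LTbR and 14.1 with the combination. All 3 treated libraries lay below the untreated one, with log2 ratios of −0.97, −0.84 and −1.72. The interval of the last ran from −2.21 to −1.28. Fdps, which makes farnesyl pyrophosphate at the branch to prenylation, stood at 32.4, 20.5, 18.3 and 13.2 CPM in the same order, with log2 ratios of −0.65, −0.83 and −1.29. Insig1 stood at 26.0, 14.6, 14.5 and 8.98 CPM, with log2 ratios of −0.82, −0.84 and −1.51 (the last from −2.15 to −0.96). Idi1 stood at 28.5, 15.0, 16.9 and 18.6 CPM, with log2 ratios of −0.91, −0.75 and −0.61. These 4 genes were past the limit in all 3 treated libraries, and no member was past it on the higher side in all 3. Under the cluster weights Cyp51 stood at −0.763, −0.455 and −1.42, Insig1 at −0.781, −0.598 and −1.37 and Fdps at −0.491, −0.585 and −1.13, so that Cyp51 with anti-LTbR and Fdps with ADU-S100 were no longer 1.5-fold apart. Idi1 was then at −0.303 with anti-LTbR and −0.174 with the combination. The Idi1 ratio was near 0 with anti-LTbR (0.00444) and at 0.07 with the combination when each cell was thinned to 1500 UMIs, with intervals wider than 1 log2 unit.

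Sqle, the squalene epoxidase, stood at 12.4, 9.85, 6.19 and 6.88 CPM and was past the limit with anti-LTbR (log2 ratio −1.0) and the combination (−0.83). Msmo1, a sterol methyl oxidase, stood at 21.1, 17.7, 17.7 and 11.1 CPM and passed the limit with the combination alone (−0.92). Stard4, which carries sterol between membranes, stood at 42.9, 32.7, 30.4 and 25.1 CPM and did so too (−0.77). Not every gene of the pathway stood lower. Hmgcs1 stood at 29.6, 29.2, 28.7 and 20.6 CPM, so that ADU-S100 and anti-LTbR differed from untreated by less than counting error. Ggps1, which makes geranylgeranyl pyrophosphate for prenylation, stood higher in every treated library, at 49.9, 62.2, 64.3 and 60.7 CPM, and was not past the limit in any.

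The transcription factor genes themselves differed little. Srebf2, which encodes the SREBP of cholesterol synthesis, stood at 81.5 CPM in the first 3 libraries and 65.8 in the combination (log2 ratio −0.31, from −0.55 to −0.07). Srebf1 stood at 40.9, 36.2, 39.0 and 37.4 CPM, and Insig2 at 28.5, 23.6, 27.5 and 24.2 CPM. Every interval of Srebf1 and Insig2 included equality. Scap stood at 29.9, 33.5, 41.8 and 35.6 CPM, with an interval above equality with anti-LTbR alone (log2 ratio 0.48, from 0.20 to 0.77).

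On the efflux side, Abcg1 stood at 40.9, 48.8, 63.0 and 66.4 CPM in T cells, past the limit with anti-LTbR (log2 ratio 0.62, from 0.38 to 0.86) and the combination (0.70, from 0.43 to 0.97). Mylip, which marks lipoprotein receptors for degradation, stood at 28.5, 39.0, 52.7 and 45.5 CPM, with log2 ratios of 0.46, 0.89 and 0.68. Inside the cluster led by Lef1, Tcf7 and S1pr1 Abcg1 was at 90.0, 79.2, 94.1 and 91.6 CPM and Mylip at 88.8, 71.8, 90.7 and 76.2 CPM, with every interval of the ratios including equality. In the Foxp3 cluster Abcg1 stood at 38.7, 22.7, 62.7 and 65.6 CPM, again with every interval including equality. In the cycling cluster Mylip stood at 16.1, 15.8, 46.6 and 21.6 CPM, from 9 UMIs in the untreated library and 31 with anti-LTbR, where the log2 ratio was 1.48 (from 0.43 to 2.79). Under the cluster weights the Abcg1 ratios were 0.249 with anti-LTbR and 0.527 with the combination, and those of Mylip 0.333 and 0.30, all under 1.5-fold. Without cycling cells Abcg1 also fell short of it, at 0.482 and 0.543, and Mylip did so with the combination, at 0.48. Abca1 stood at 28.1, 24.4, 29.3 and 44.6 CPM and was past the limit in the combination alone (0.66, from 0.33 to 1.00), but not with cells named one by one (0.0471) or without cycling cells (0.225). Of its 156 UMIs in untreated T cells 44 came from 1 cell. Without the cell that held most Abca1 UMIs in each library the level was 20.3 CPM untreated and the ratios were 0.156, 0.479 and 1.09. Nr1h2, the LXR of most tissues, stood at 50.5, 52.0, 59.3 and 55.3 CPM, and Nr1h3, the LXR of macrophages, gave only 3, 1, 3 and 8 UMIs. The T cells held macrophage RNA: the 14 macrophage and monocyte markers, all detected, summed to 5.6, 8.27, 9.95 and 10.2% of their level in macrophages. The Abca1 level of T cells was 5.17, 3.21, 5.66 and 8.38% of that in macrophages, and the Abcg1 level was 45.8, 50.9, 50 and 65.8%. The part of macrophage RNA in the T cell Abca1 difference was not tested.

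**Figure D2:**
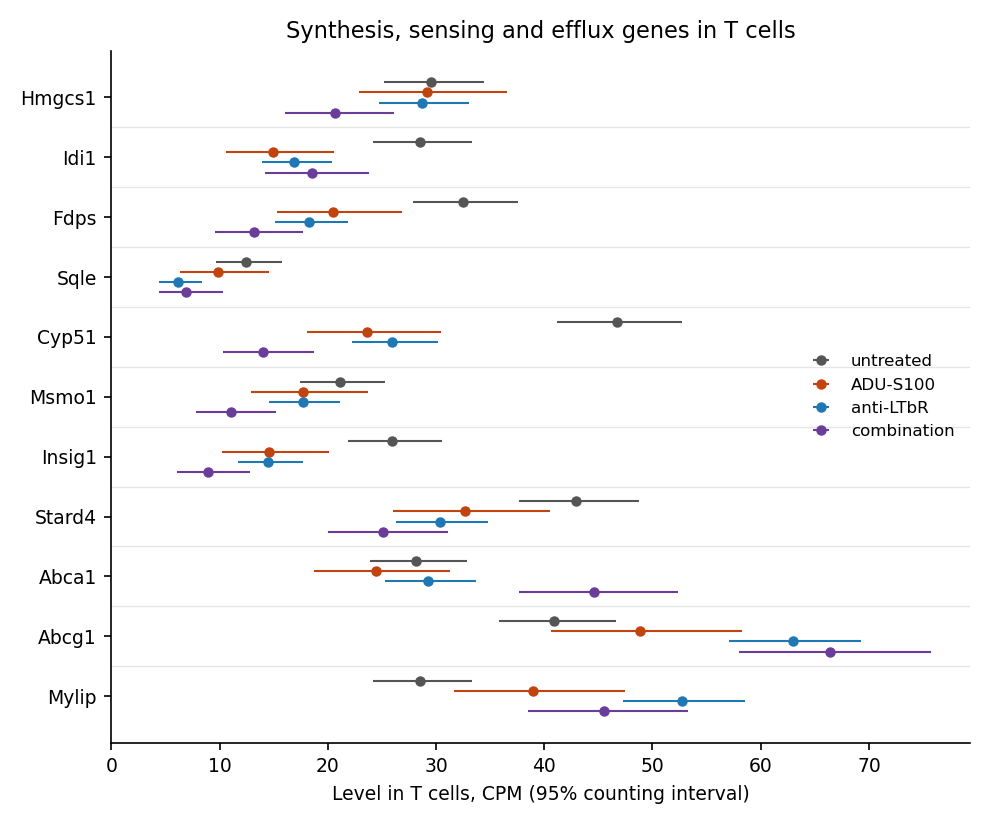
CPM in T cells (horizontal axis) of synthesis, sensing, transport and efflux genes (rows), with 1 point per library and exact Poisson 95% intervals for counting error. Cyp51 stands at 46.7 CPM untreated and 14.1 with the combination, and Abcg1 at 40.9 and 66.4 CPM.

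Within the 7 T cell clusters the pattern was uneven. The summed synthesis interval lay below equality in 1 cluster with ADU-S100, 1 with anti-LTbR and 2 with the combination, and above it in 1 cluster with anti-LTbR. The cycling cluster, with Kif11 and Pclaf among its leading genes, stood at 684 CPM untreated, 550 with ADU-S100, 398 with anti-LTbR and 374 with the combination. In it Cyp51 stood at 89.6, 63.3, 24.1 and 21.6 CPM, and the 2 anti-LTbR-treated libraries lay below both others. The cluster led by Cd8a, Ifng and Pdcd1 summed to 394, 354, 411 and 345 CPM, and its Cyp51 to 46.4, 30.3, 36.9 and 14.1 CPM. The cluster led by Foxp3 and Il2ra summed to 437, 483, 528 and 408 CPM and was the cluster above equality with anti-LTbR (log2 ratio 0.27, from 0.04 to 0.50). The cluster led by Lef1, Tcf7 and S1pr1 had the lowest sum of these, at 264, 217, 248 and 226 CPM, and its Cyp51 stood at 11.4, 11.1, 11.4 and 8.06 CPM.

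The share of cycling T cells, with 2 or more UMIs of a cell cycle list, was 23.7% untreated and 17.6, 16.3 and 12.3% in the treated libraries. This share falls with the UMIs per cell, and the summed level of the same list was 887, 801, 935 and 767 CPM, so that no order is read from the share. The part of cycling cells in the synthesis level was not tested beyond leaving them out. Over all ways of processing the summed T cell ratio was between −0.33 and −0.144 for ADU-S100, −0.29 and −0.0756 for anti-LTbR and −0.45 and −0.275 for the combination, the version without cycling cells included. The median UMI count per T cell was 3367, 3738, 2883 and 1668.

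In macrophages and monocytes almost the whole synthesis pathway stood lower with each treatment, and the oxysterol enzyme Ch25h stood far lower in the combination than in any other library. The summed synthesis level was 516, 355, 381 and 434 CPM, with log2 ratios of −0.54, −0.44 and −0.25. Of the 19 genes 18, 19 and 17 had a ratio below 0, against 73.7, 59.0 and 64.2% of all genes. The interval lay below equality for 17, 16 and 14, against 54.5, 29.0 and 35% of all genes. With the 17 sub-clusters weighted by their untreated share the summed ratios were −0.454, −0.277 and −0.215. Pmvk, the phosphomevalonate kinase, stood at 58.3, 69.7, 50.2 and 82.1 CPM, with an interval above equality with ADU-S100 and the combination. Without it the summed ratios were −0.682, −0.469 and −0.38. Mvd, the mevalonate diphosphate decarboxylase, was the other gene with a ratio above 0 with the combination (0.11, an interval that included equality).

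By the limit, 0 of 35 members were higher and 13 lower with ADU-S100, where 6.72% of all 12790 genes counted were higher and 15.0% lower. With anti-LTbR 1 was higher and 8 lower, against 4.90% and 4.58%. With the combination 0 were higher and 4 lower, against 5.02% and 4.54%. The median of all genes was itself at −0.21 with ADU-S100, −0.05 with anti-LTbR and −0.09 with the combination. The synthesis medians of −0.72, −0.47 and −0.39 are read against those values, and with median-of-ratios scaling the summed ratios were −0.34, −0.38 and −0.17, the lowest then being that with anti-LTbR.

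Idi1 stood at 35.7, 17.9, 23.2 and 25.7 CPM in macrophages, with log2 ratios of −0.99, −0.62 and −0.48. Msmo1 stood at 55.5, 28.4, 36.1 and 35 CPM, with log2 ratios of −0.96, −0.62 and −0.67. Lss, which closes the ring to lanosterol, stood at 6.91, 2.37, 3.51 and 4.49 CPM, with log2 ratios of −1.54, −0.98 and −0.62. Lss and Msmo1 were past the limit in all 3 treated libraries. In each of these 3 genes the ADU-S100 library was the lowest. Under the sub-cluster weights all 3 stayed past 1.5-fold with ADU-S100 (−0.835, −0.829 and −1.28 for Idi1, Msmo1 and Lss) and none did with anti-LTbR (−0.375, −0.38 and −0.55), nor did Msmo1 and Lss with the combination (−0.563 and −0.401).

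The other enzymes past the limit with ADU-S100 spanned the pathway from its start to its end. Hmgcs1 stood at 52.6, 29.1, 38.0 and 38.4 CPM (log2 ratio −0.85 with ADU-S100), Mvk, the mevalonate kinase, at 8.42, 5.40, 6.28 and 7.09 CPM (−0.64), and Fdps at 50.1, 30.5, 33.3 and 37.8 CPM (−0.72). Fdft1, the squalene synthase, stood at 24.9, 13.4, 17.1 and 18.9 CPM (−0.89), Sqle at 20.7, 10.8, 13.2 and 15.4 CPM (−0.94) and Cyp51 at 55.3, 32.0, 36.6 and 43.6 CPM (−0.79). Hsd17b7, which acts in the removal of the sterol methyl groups, stood at 7.63, 3.90, 5.51 and 4.32 CPM (−0.97), and Dhcr7, which completes cholesterol, at 11.8, 6.20, 7.68 and 8.31 CPM (−0.93). Fdps, Sqle, Cyp51, Idi1 and Dhcr7 were past the limit with anti-LTbR too, and Hsd17b7 with the combination. In each of these genes the untreated library was the highest.

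Sensing genes were not past the limit in macrophages. Srebf2 stood at 81.6, 59.0, 68.4 and 75.8 CPM, with log2 ratios of −0.47, −0.25 and −0.11. Srebf1 stood at 32.4, 29.7, 33.8 and 31.5 CPM. Insig1 stood at 47.5, 34.6, 32.2 and 35 CPM, with log2 ratios of −0.46, −0.56 and −0.44. Insig1 therefore stood lower in all 3 treated libraries, by less than 1.5-fold. Stard4 stood at 22.4, 12.3, 15.5 and 17.7 CPM and was past the limit with ADU-S100 (−0.87).

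Efflux genes in macrophages did not stand lower with ADU-S100. Abca1 stood at 544, 760, 518 and 532 CPM, with a log2 ratio of 0.48 (from 0.45 to 0.51) with ADU-S100 and of −0.07 and −0.03 in the other treated libraries. Abcg1 stood at 89.4, 96.0, 126 and 101 CPM and was highest with anti-LTbR (0.49, from 0.42 to 0.56). Mylip stood at 42.2, 57.6, 54.3 and 43.3 CPM. Nr1h3 stood at 10.2, 13.4, 16.3 and 14.0 CPM and was past the limit with anti-LTbR (0.68, from 0.48 to 0.88). The median of the 5 LXR and efflux genes was 0.40, 0.36 and 0.04.

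Ch25h makes the oxysterol 25-hydroxycholesterol, which blocks SREBP cleavage and feeds the ligand of the chemotactic receptor GPR183. It stood at 45.9, 30.6, 28.1 and 11.7 CPM in macrophages, with log2 ratios of −0.59, −0.71 and −1.97 (the last from −2.15 to −1.80). The combination library lay below all others. The ratio with ADU-S100 lay at the limit itself, and was −0.384 with median-of-ratios scaling and −0.289 after thinning. With the sub-clusters weighted by their untreated share the ratios turned with both single agents, to 0.102 and 0.208, and stayed at −1.47 with the combination. Soat1, which esterifies cholesterol for storage, stood at 170, 197, 200 and 181 CPM. Lipa, the lysosomal lipase that frees cholesterol from esters, stood at 84.4, 68.3, 64.5 and 58.2 CPM, with log2 ratios of −0.31, −0.39 and −0.54. The lysosomal carriers Npc1 (63.3, 61.7, 61.4 and 56.2 CPM) and Npc2 (1203, 1279, 1179 and 1119 CPM) had log2 ratios between −0.17 and 0.09.

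**Figure D3:**
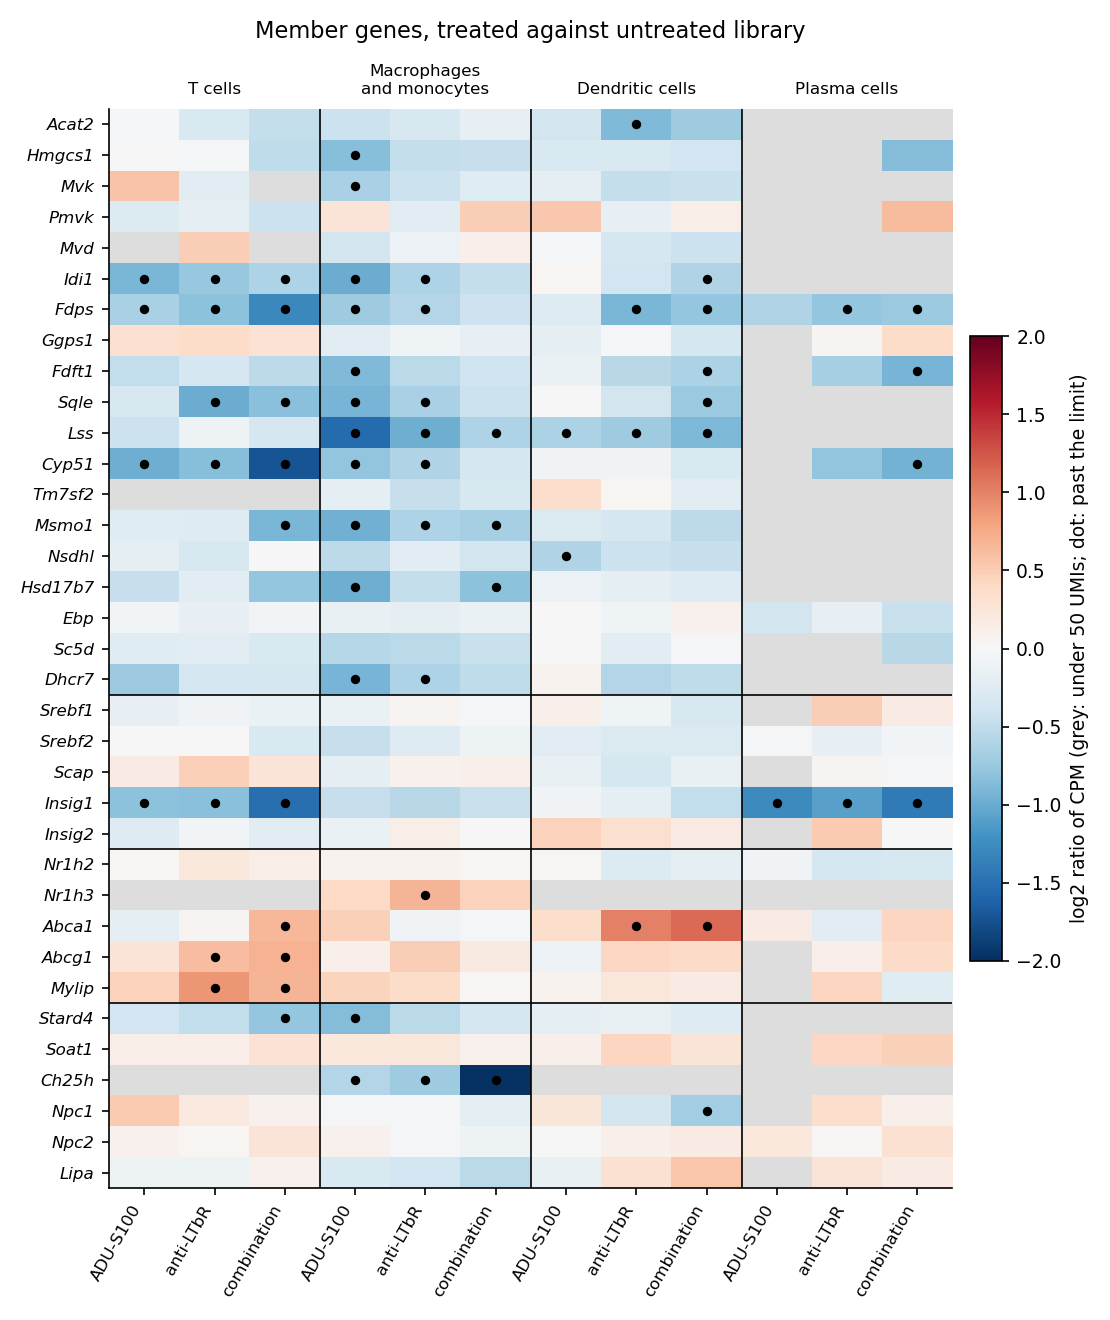
Log2 ratio to the untreated library (color scale) of each of the 35 genes (rows, by role) in 4 cell classes with 3 treated libraries each (columns). Synthesis genes in macrophages are below 0 in 18, 19 and 17 of 19 cases, and Ch25h in macrophages with the combination stands at −1.97.

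Cycling cells by the same definition made up 21.8% of untreated macrophages and 14.2, 10.7 and 9.1% of the treated ones, while the summed level of the list was 391, 187, 290 and 358 CPM. The 2 measures differ in order, and the level was lowest with ADU-S100, where all 16 cycling genes were past the limit on the lower side. Without cycling cells the summed synthesis ratio with ADU-S100 was −0.49. The median UMI count per macrophage was 6424, 6993, 4675 and 2786, lowest in the combination. Sub-clusters of macrophages changed in share too: C1q-like cells made up 30% of macrophages untreated and 16.9, 18.9 and 17.5% in the treated libraries.

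Of 13 macrophage and monocyte subsets, 9 had a summed synthesis interval below equality with ADU-S100, 9 with anti-LTbR and 8 with the combination, and 1 lay above it with the combination. The C1q-like macrophages, which express complement C1q, stood at 604, 411, 446 and 519 CPM, and the cycling macrophages at 667, 441, 523 and 674 CPM. The Mmp12 and Gpnmb-like macrophages were the lowest of the named subsets in the untreated library, at 245, 252, 271 and 301 CPM. The Chil3 and Vcan-like monocytes stood at 308, 315, 277 and 277 CPM, and the interferon-high-like cells at 431, 437, 272 and 306 CPM. A subset left unnamed, led by Serpinb2, Gpnmb and Hspa1b, stood at 383, 177, 160 and 197 CPM and had the lowest ratio of the 13 subsets with anti-LTbR, −1.26.

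In the C1q-like macrophages 11 of the 19 synthesis genes were past the limit on the lower side with ADU-S100, 8 with anti-LTbR and 4 with the combination, against 3.38, 1.74 and 2.92% of all genes counted in these cells. In the Chil3 and Vcan-like monocytes no synthesis gene was past the limit, of 8, 9 and 7 tested, where 6.41, 1.76 and 2.46% of all genes were lower. The numbers of cells differ between these subsets, and so does the size of difference that can be seen; the difference between subsets was not tested.

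Ch25h was mostly a gene of the C1q-like macrophages, which held 74.0, 66.3, 65.7 and 54.0% of the macrophage Ch25h UMIs. Within them it stood at 93.8, 104, 86.2 and 32.8 CPM (interval 28.2 to 37.8 in the combination), with log2 ratios of 0.14, −0.12 and −1.51. The combination thus stood below the other 3 libraries inside this subset.

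The C1q-like macrophages were made of 2 sub-clusters, the first led by Ch25h itself (973, 757, 635 and 1160 cells) and the second by Cd163 (246, 222, 748 and 320 cells), so that most C1q-like cells of the anti-LTbR library lay in the second. Ch25h stood at 105, 115, 134 and 38.0 CPM in the first and at 28.1, 12.1, 16.0 and 5.46 CPM in the second. Ch25h was not among the genes used for clustering, but the sub-clusters were made from these same cells, so that its difference between them is a description. In the first Ch25h had log2 ratios of 0.136 (from 0.002 to 0.27) with ADU-S100 and 0.35 (from 0.204 to 0.494) with anti-LTbR, and in the second of −1.18 (from −2.28 to −0.272) and −0.815 (from −1.42 to −0.199), the second from 43, 12, 54 and 5 UMIs. The combination was the lowest library in both, with log2 ratios of −1.46 (from −1.70 to −1.24) and −2.25 (from −4.06 to −1.03). The summed synthesis level was 642, 438, 574 and 564 CPM in the first and 382, 201, 258 and 283 CPM in the second, highest in the untreated library in both. Its log2 ratios were −0.551, −0.163 and −0.188 in the first and −0.921, −0.565 and −0.431 in the second. The counts of synthesis genes past the limit in C1q-like macrophages pool both sub-clusters, whose shares differed between libraries. Abcg1 stood above untreated with anti-LTbR in both, with log2 ratios of 0.57 and 0.74.

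The interferon-high-like cells and the cycling macrophages had less Ch25h than the C1q-like macrophages in each library. The interferon-high-like cells stood at 55.5, 47.8, 29.4 and 14.4 CPM, past the limit with anti-LTbR (−0.91) and the combination (−1.89). The cycling macrophages stood at 45.5, 63.0, 72.5 and 16.1 CPM, higher with anti-LTbR (0.67) and lower with the combination (−1.49). T cells, which should lack the enzyme, gave 4, 1, 2 and 0 UMIs. For the 0 of the combination a limit of 3 counts is 0.898 CPM, and the exact Poisson interval reaches 1.10 CPM.

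Abca1 was high in the Mmp12 and Gpnmb-like macrophages at 824, 877, 727 and 781 CPM, with small differences between libraries. It was low in the Chil3 and Vcan-like monocytes at 112, 242, 138 and 126 CPM, where ADU-S100 lay above all other libraries and past the limit (log2 ratio 1.11). In the C1q-like macrophages Abca1 stood at 521, 701, 685 and 605 CPM, and Abcg1 at 69.0, 84.4, 126 and 89.5 CPM, past the limit with anti-LTbR (0.86). In the same cells Mylip stood at 37.7, 52.7, 62.5 and 38.4 CPM (0.73 with anti-LTbR) and Nr1h3 at 12.3, 14.8, 18.5 and 20.2 CPM (0.71 with the combination). Nr1h3 stood at 7.82, 11.6, 17.4 and 21.7 CPM in the Chil3 and Vcan-like monocytes and was past the limit with anti-LTbR (1.10). In no library were the monocytes within a factor of 2 of the Mmp12 and Gpnmb-like macrophages in Abca1.

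**Figure D4:**
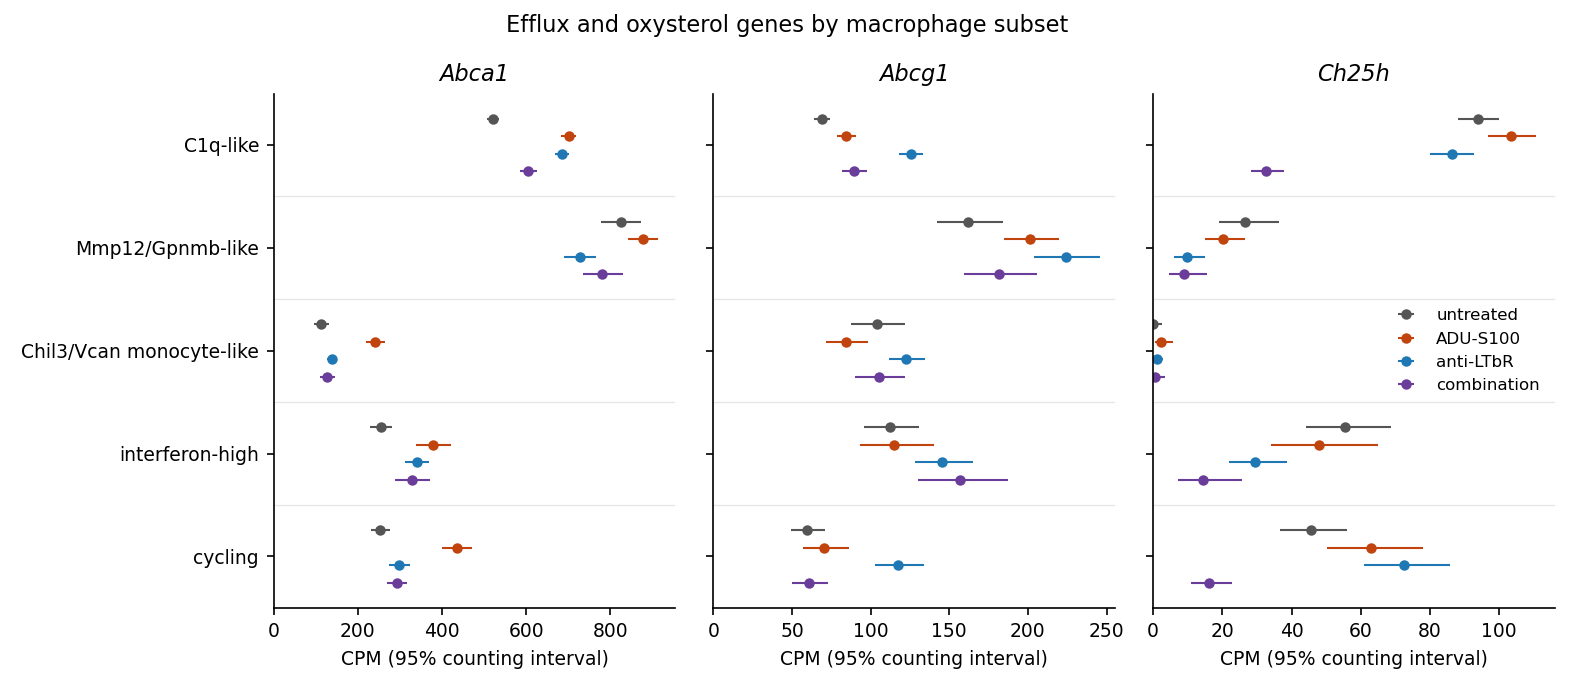
CPM of Abca1, Abcg1 and Ch25h (panels, each with its own axis) in macrophage and monocyte subsets (rows), with 1 point per library and exact Poisson 95% intervals for counting error. Abca1 is lowest in the Chil3 and Vcan-like monocytes (112 to 242 CPM), and Ch25h is highest in the C1q-like macrophages, where the combination stands at 32.8 CPM.

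In dendritic cells the summed synthesis level stood lower with anti-LTbR and the combination, while with ADU-S100 its interval included equality with the kinase gene Pmvk in the sum and lay below equality without it. Whether the ADU-S100 ratio differed from that of other classes was not tested. The sum was 764, 740, 596 and 587 CPM, with log2 ratios of −0.05, −0.36 and −0.38. Pmvk stood at 102.6, 148.6, 91.2 and 112.7 CPM, highest with ADU-S100 (log2 ratio 0.53, from 0.36 to 0.71, under 1.5-fold). The sum of the other 18 genes was 661, 592, 505 and 474 CPM, with log2 ratios of −0.16 (from −0.237 to −0.0841), −0.389 and −0.48. Of the 19 genes 14, 18 and 17 had a ratio below 0, against 60.2, 51.9 and 56.6% of all genes. The interval lay below equality for 5, 8 and 8, against 19.3, 16.1 and 19.8% of all genes, and above it for 1, Pmvk, with ADU-S100. At cluster resolution 2 the ratio of the whole sum with ADU-S100 was −0.198 (from −0.255 to −0.141). By the limit, 0 of 33 members were higher and 2 lower with ADU-S100, where 4.41% of all genes were higher and 6.61% lower. With anti-LTbR 1 was higher and 3 lower, against 6.69% and 3.85%, and with the combination 1 was higher and 6 lower, against 6.92% and 6.26%. When each cell was thinned to 1500 UMIs the combination ratio was −0.10 (from −0.26 to 0.06). With the DC clusters weighted by their untreated share, chosen after seeing the data, the summed ratios were −0.258 with anti-LTbR and −0.26 with the combination. The 14 macrophage and monocyte markers summed in DCs to 12.6, 12.1, 24.4 and 30.1% of their level in macrophages. Their part in the synthesis level of DCs was not tested.

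Fdps stood at 129, 108, 68.4 and 75.1 CPM in DCs, with log2 ratios of −0.26, −0.92 and −0.78, so that both libraries given anti-LTbR lay below both others. Lss stood at 12.2, 7.85, 7.44 and 6.47 CPM and was past the limit in all 3, with log2 ratios of −0.63, −0.72 and −0.90, but after thinning the first 2 ratios were 0.44 and 0.28, with intervals wider than 2 log2 units. With the combination Idi1 (66.4, 68.1, 50.9 and 43.5 CPM), Sqle (36.8, 36.7, 28.4 and 22.0 CPM) and Fdft1 (37.3, 34.2, 25.4 and 24.1 CPM) were also past the limit, at −0.61, −0.74 and −0.63. Acat2, which joins acetyl-CoA at the start of the pathway, passed it with anti-LTbR (6.89, 5.32, 3.72 and 4.14 CPM, log2 ratio −0.88), and the sterol dehydrogenase Nsdhl with ADU-S100 (14.0, 9.11, 10.4 and 10.1 CPM, −0.61). Hmgcs1 stood at 80.8, 65.3, 65.1 and 61.6 CPM, Srebf2 at 177, 153, 145 and 144 CPM and Insig1 at 33.5, 31.9, 29.3 and 23.8 CPM. None of these 3 was past the limit. Srebf1 stood at 36.0, 38.5, 33.9 and 28.8 CPM, with every interval including equality.

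Abca1 stood at 37.7, 48.4, 76.0 and 82.6 CPM in DCs, past the limit with anti-LTbR (log2 ratio 1.01, from 0.77 to 1.26) and the combination (1.13, from 0.87 to 1.40). Abcg1 stood at 58.4, 53.9, 77.9 and 76.1 CPM, and Nr1h3 gave under 50 UMIs in each comparison. Npc1, the lysosomal exporter of free cholesterol, stood at 65.5, 77.5, 50.6 and 40.4 CPM and was past the limit with the combination (−0.69). Lipa stood at 38.3, 34.7, 47.2 and 56.2 CPM. With ADU-S100 the Abca1 ratio was 0.36 (from 0.06 to 0.65), but 1.34 with cells named one by one, 0.955 without doublet removal, 0.792 at resolution 2 and −0.03 after thinning. The 14 macrophage and monocyte markers, all detected, summed in DCs to 12.6, 12.1, 24.4 and 30.1% of their level in macrophages, and so moved with Abca1 in both libraries given anti-LTbR. When cells were named one by one, the Abca1 ratio with anti-LTbR was −0.03 (from −0.31 to 0.25). With the DC clusters weighted by their untreated share it was 0.634, and 0.861 with the combination. The part of macrophage RNA in the DC Abca1 difference was not tested.

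Among the DC subsets, cDC1-like cells stood at 894, 937, 695 and 666 CPM of summed synthesis, and the conventional type 2 (cDC2)-like cells at 744, 736, 560 and 536 CPM. In the cDC2-like cells Pmvk stood at 128, 200.1, 91.0 and 106 CPM, past the limit on the higher side with ADU-S100 (0.64, from 0.42 to 0.87), and the sum of the other 18 genes was 616, 535, 469 and 429 CPM, with a log2 ratio of −0.201 (from −0.319 to −0.0839) with ADU-S100. Mature DC-like cells, with Ccr7 and Fscn1, stood at 690, 596, 630 and 703 CPM, and plasmacytoid-like cells at 677, 877, 638 and 663 CPM. With ADU-S100 the plasmacytoid-like cells were the 1 of 4 DC subsets above equality (log2 ratio 0.372, from 80 untreated and 73 treated cells). Without Pmvk their ratio was 0.372 (from 0.129 to 0.616). That of cDC1-like cells was then 0.0396 (from −0.114 to 0.19), and that of mature DC-like cells −0.258 (from −0.429 to −0.0878). In both conventional subsets the libraries given anti-LTbR were the lower ones. Fdps stood at 234, 243, 133 and 164 CPM in cDC1-like cells, past the limit with anti-LTbR (−0.82), and at 93.2, 88.7, 61.2 and 60.9 CPM in cDC2-like cells, past it with anti-LTbR and the combination (−0.61 in both). Idi1 in cDC2-like cells was past the limit with the combination (−1.25), as was Sqle in cDC1-like cells (−1.24).

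Abca1 in cDC2-like cells stood at 35.8, 59.1, 67.9 and 93.4 CPM, past the limit in all 3 treated libraries (0.72, 0.92 and 1.38). These cells were made of a cluster led by Cd209a and one led by Retnla, Lyz1, Ear2 and Lpl, the second of which was 7.04, 5.63, 24.0 and 25.0% of them. Abca1 stood at 24.7, 55.6, 36.7 and 48.2 CPM in the first, with log2 ratios of 1.16, 0.56 and 0.96 and every interval above equality. In the second it stood at 174, 107, 168 and 221 CPM, with every interval including equality. The macrophage and monocyte markers, all 14 detected, summed in cDC2-like cells to 19.2, 15.8, 33.9 and 40.2% of their level in macrophages, and their part in the Abca1 difference was not tested. In mature DC-like cells it stood at 13.6, 28.3, 24.7 and 70.1 CPM, past the limit with the combination (2.34). In cDC1-like cells it gave only 28, 4, 10 and 5 UMIs. In plasmacytoid DC-like cells it stood at 167, 119, 362 and 291 CPM, from 70, 44, 176 and 32 UMIs, past the limit with anti-LTbR (1.11) and the combination (0.81). Of the 70 untreated UMIs of these cells 19 came from 1 cell, and without the cell that held most Abca1 UMIs in each library the ratios were 1.45 and 0.733, the last with an interval that included equality. Without such cells the cDC2-like ratio with ADU-S100 was 0.561, under 1.5-fold.

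Plasma cells were few in the untreated and ADU-S100 libraries, and only 7 members reached 50 UMIs in all 3 comparisons. The summed synthesis level was 433, 321, 315 and 326 CPM, with log2 ratios of −0.43, −0.46 and −0.41. By the limit 0 of 7 members were higher and 1 lower with ADU-S100, where 6.76% of all genes counted were higher and 15.6% lower. With anti-LTbR 0 of 18 were higher and 2 lower, against 4.33% and 5.95%, and with the combination 0 of 21 were higher and 4 lower, against 5.94% and 3.74%.

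Insig1 stood at 79.3, 32.2, 37.7 and 29.8 CPM in plasma cells, from 44, 17, 83 and 76 UMIs, with log2 ratios of −1.27 (from −2.20 to −0.46), −1.08 (from −1.62 to −0.51) and −1.42 (from −1.97 to −0.84). The untreated library was the highest, and the 3 treated ones lay close together. Of its 44 UMIs 20 came from 1 cell. Without the cell that held most Insig1 UMIs in each library the untreated level was 44.4 CPM and the ratios were −0.655, −0.363 and −0.63, with every interval including equality, so that the Insig1 calls in plasma cells rested on that cell. After thinning the ratios were −0.147, −0.646 and −0.149, so that those with ADU-S100 and the combination were under 1.5-fold. Fdps stood at 75.7, 49.3, 44.5 and 45.5 CPM and was past the limit with anti-LTbR (−0.78) and the combination (−0.75). After thinning those ratios were 0.02 and 0.07, with intervals wider than 4 log2 units. Fdft1 (32.4, 15.2, 20.9 and 17.3 CPM) and Cyp51 (39.7, 17.1, 23.1 and 20.8 CPM) were past the limit with the combination, at −0.93 and −0.95.

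Srebf2 stood at 132, 129, 118 and 127 CPM in plasma cells, Srebf1 at 21.6, 24.7, 31.3 and 25.1 CPM and Hmgcs1 at 25.2, 19.0, 15.0 and 14.1 CPM. Sqle stood at 27.0, 26.5, 13.2 and 12.9 CPM, from too few UMIs to be counted. Abca1 stood at 133, 150, 115 and 182 CPM and Abcg1 at 36.1, 26.5, 39.5 and 48.2 CPM, and neither was past the limit. The macrophage and monocyte markers summed in plasma cells to 28.3, 37.0, 39.4 and 39.6% of their level in macrophages, with 13 of the 14 detected in the untreated library and 14 in the others. Single markers stood lower and in another order, with C1qa at 5.98, 13.4, 4.52 and 15.0% and Csf1r at 6.96, 8.72, 7.53 and 11.7%. How much of the sum was macrophage RNA was not tested. The Abca1 level of plasma cells was 24.5, 19.7, 22.3 and 34.1% of that in macrophages. When cells were named one by one the summed synthesis ratios were 0.20, −0.04 and −0.05, with every interval including equality, so that the lower level in plasma cells depended on which cells were called plasma cells.

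The combination was also set against each single agent, and the members given were chosen after their values were seen. In T cells Cyp51 stood lower in the combination than with ADU-S100 (log2 ratio −0.75, from −1.33 to −0.17) and with anti-LTbR (−0.87, from −1.38 to −0.41), and Abca1 higher than with both (0.86 and 0.61). There C1qa was 1.66, 2.58 and 4.2% of its macrophage level with ADU-S100, anti-LTbR and the combination, and Csf1r 1.93, 2.3 and 4.56%. The part of macrophage RNA in this Abca1 difference was not tested. In macrophages Ch25h stood lower than with ADU-S100 (−1.39, from −1.56 to −1.22) and anti-LTbR (−1.26, from −1.44 to −1.09), and Lss higher than with ADU-S100 (0.92). In DCs Idi1, Sqle and Npc1 stood lower in the combination than with ADU-S100 (−0.64, −0.73 and −0.94), and Abca1 and Lipa higher (0.77 and 0.69). In plasma cells Insig1 was not apart from either single agent, and Abca1 stood higher than with anti-LTbR (0.65). Macrophage genes moved the same way there. Relative to macrophages, C1qa was at 4.52% with anti-LTbR and 15.0% with the combination, C1qb at 4.9 and 16.1% and Csf1r at 7.53 and 11.7%. Their part in the plasma cell Abca1 difference was not tested. The comparisons share the untreated or combination library, so that their values are not independent of each other.

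Other genes of lipid metabolism, a list of 42 for fatty acid synthesis, oxysterol and bile acid synthesis, uptake, sterol transfer and isoprenoid use, were counted by the same limit. In T cells 2 were higher and 4 lower of 31 with ADU-S100, 4 and 0 of 33 with anti-LTbR and 3 and 1 of 31 with the combination, against 3.63 and 5.97, 4.69 and 4.49, and 4.07 and 4.67% of all genes. Elovl6, which lengthens saturated fatty acids, stood at 40.8, 65.4, 64.2 and 73.6 CPM, past the limit in all 3 (log2 ratios 0.68, 0.65 and 0.85). Scd2, a desaturase, stood at 57.2, 34.3, 47.1 and 35 CPM, lower with ADU-S100 (−0.73) and the combination (−0.70). Gpr183, the receptor for oxysterols downstream of Ch25h, stood at 152, 234, 219 and 175 CPM (0.63 with ADU-S100).

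In macrophages 1 of 39 was higher and 10 lower with ADU-S100, against 6.72 and 15.0% of all genes, and 1 was higher and 0 lower in the other 2 comparisons, against 4.90 and 4.58% and 5.02 and 4.54%. With ADU-S100 the fatty acid genes Fasn (14.2, 7.31, 11.8 and 11.7 CPM, log2 ratio −0.95), Fads2 (6.77, 1.91, 4.64 and 6.65 CPM, −1.82), Fads1 (−0.83) and Acaca (−0.60) stood lower, and so did the scavenger receptor Cd36 (49.2, 26.8, 46.2 and 53.9 CPM, −0.88). The one gene on the higher side was Cyp7b1, the hydroxylase that breaks down 25-hydroxycholesterol and makes the GPR183 ligand. It stood at 0.516, 1.00, 3.82 and 3.28 CPM, with log2 ratios of 0.93, 2.85 and 2.63. These levels rest on 15 UMIs in the untreated macrophages. Cyp7b1 is also among the leading genes of a cDC2-like cluster and stood at 147, 146, 118 and 148 CPM in DCs. The 11 cDC2 markers, all detected, summed in macrophages to 28.3, 28.1, 30.4 and 34.1% of their level in cDC2-like cells. Ccl17 and Mgl2 of this list were also among the leading genes of a macrophage sub-cluster. The sum thus cannot tell DC RNA from expression by the macrophages themselves. The part of DC RNA in the Cyp7b1 difference was not tested.

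In DCs 2 genes of the list were higher and 3 lower of 38 with ADU-S100, 2 and 2 of 39 with anti-LTbR and 2 and 3 of 38 with the combination, against 4.41 and 6.61, 6.69 and 3.85, and 6.92 and 6.26% of all genes. Cyp27a1, which makes 27-hydroxycholesterol, stood at 40.0, 22.3, 26.5 and 25.1 CPM, lower in all 3. Lrp1, a lipoprotein receptor that macrophages also express, stood at 74.5, 107, 154 and 192 CPM, past the limit with anti-LTbR (1.05) and the combination (1.37). Gramd1b, which carries cholesterol from the plasma membrane to the endoplasmic reticulum, stood at 302, 251, 202 and 131 CPM (−1.21 with the combination). Fads2 stood at 23.9, 21.0, 11.8 and 8.81 CPM, past the limit with anti-LTbR (−1.02) and the combination (−1.43).

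In plasma cells 0 genes of the list were higher and 5 lower of 12 with ADU-S100, 1 and 4 of 26 with anti-LTbR and 2 and 3 of 28 with the combination, against 6.76 and 15.6, 4.33 and 5.95, and 5.94 and 3.74% of all genes. Cd36 stood at 82.9, 13.3, 11.8 and 14.1 CPM, lower in all 3 treated libraries. Gpr183 stood at 36.1, 36.0, 72.6 and 62.0 CPM, higher with anti-LTbR (0.98) and the combination (0.75). Scd2 stood lower with ADU-S100 (−1.66).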

How the data were processed

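Tumours were pooled within each of 4 groups, live CD45+ cells were sorted, and 1 library of 5′ single-cell RNA was made per group. The authors deposited filtered matrices of UMI counts per gene and cell, made with Cell Ranger on mm10 (version 7.1.0 per the labels, 8.0.1 per the file headers; the kit is GEM-X in the labels and Next GEM in the methods). Values are raw counts. Cells with 300 to 5000 genes and at most 6% mitochondrial UMIs were kept, as in the study's methods, and the cells with the highest Scrublet scores were removed at 0.4% per 1000 deposited cells (305, 949, 857 and 1066 cells), since Scrublet's own threshold marked 0, 0, 1 and 0. The 4 libraries were clustered jointly in scanpy 1.11.5 with leidenalg 0.10.2 (2000 variable genes, 30 components, 20 neighbours, resolution 1), leaving out immunoglobulin genes, variable genes of T cell receptors, ribosomal and mitochondrial genes, the 35 members and the other lipid genes. Macrophages were clustered again.

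Clusters were named from marker lists where 3 or more markers were 2-fold higher than in other cells and detected in 10% of the cluster. After the data had been seen, class-level clusters that stayed unnamed were compared a second time, for each marker list, with cells that had been given another name; subsets had no second round. One cluster of low depth (1329 cells) stayed unnamed. UMIs were summed per class and library, without immunoglobulin genes in the total, and given as CPM with exact Poisson 95% intervals. Log2 ratios had 0.5 UMI added to each sum and exact binomial 95% intervals (scipy 1.17.1). Intervals cover counting error only, and no test was run because each group had 1 library. The calling code was tested on simulated data. UMI totals were 62248447, 85855398, 73704334 and 52109958.

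The members and all lists were chosen with earlier results of these data known. Named genes were members past the limit in any class, 8 genes named in any case (Hmgcs1, Sqle, Insig1, Srebf1, Srebf2, Nr1h3, Abca1 and Abcg1) and at most 6 other lipid genes per class past the limit; other members are given where they complete a role. Alternatives were no doublet removal, resolution 2, cells named one by one, immunoglobulin genes in the total, median-of-ratios scaling, thinning to 1500 UMIs, no cycling cells, members among the clustering genes, minimums of 200 UMIs or none and, chosen after the data had been seen, no clusters of doubtful type, no cell with most UMIs of a gene, no Pmvk in the sum, and cluster levels weighted by each cluster's untreated share of UMIs. RefSeq promoters of GRCm38.p6 span 250 bases before to 50 after each start. The values of 1 macrophage subset are not reported here.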

Additional observations from a re-analysis of the deposited data

How the results depend on the processing

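Groups of 1 library each leave differences between mice and between preparations unmeasured, and depth differed between libraries, so that after thinning few UMIs of single genes remain (724 of 1669 combination T cells were too shallow). No paired analysis was possible because each group had 1 library. Over 10 or 11 alternatives per comparison the summed synthesis ratio stayed below 0 in T cells, macrophages, and DCs with anti-LTbR or the combination.

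At resolution 2 the summed log2 ratios were −0.49, −0.48 and −0.36 in macrophages (ADU-S100, anti-LTbR, combination) and −0.20, −0.285 and −0.26 in DCs. With cells named one by one they were −0.235 in DCs with anti-LTbR and 0.20, −0.0438 and −0.0524 in plasma cells, and Abca1 in DCs with anti-LTbR was −0.0287. With median-of-ratios scaling they were −0.34, −0.38 and −0.17 in macrophages and 0.0391 in DCs with ADU-S100. Thinned to 1500 UMIs they were −0.33 in T cells with the combination, −0.28 and −0.10 in DCs with anti-LTbR and the combination and −0.14 in plasma cells with ADU-S100. Thinning turned Idi1 in T cells (0.00444 with anti-LTbR, 0.0706 with the combination), Lss in DCs (0.44 with ADU-S100, 0.28 with anti-LTbR) and Fdps in plasma cells (0.0219 with anti-LTbR, 0.0727 with the combination). Without cycling cells the macrophage ratio with ADU-S100 was −0.49. Without 1 DC and 1 plasma cell cluster of few markers, an alternative chosen after seeing the data, DCs stood at −0.27 with anti-LTbR and −0.29 with the combination.

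With a minimum of 200 UMIs the members past the limit on the lower side were 2 in T cells with ADU-S100, 4 with the combination, 0 and 1 in DCs with ADU-S100 and anti-LTbR, and 0, 0 and 0 in plasma cells. With no minimum 2 members were higher in DCs with anti-LTbR, and 3 and 4 lower in plasma cells with ADU-S100 and anti-LTbR. Of 129 single-gene ratios, 36 moved beyond their interval or turned after thinning, 17 under median-of-ratios scaling, 17 without cycling cells, 12 at resolution 2, 11 with cells named one by one, 4 without doublet removal, and 0 with immunoglobulin genes in the total or members among the clustering genes. Leaving out macrophage sub-clusters led by neutrophil or T cell genes, also chosen after seeing the data, changed 0 of 46 macrophage ratios, and leaving out the DC and plasma cell clusters of few markers changed 1 of 49. The cluster weights below changed 37 of 111. Without the cell holding most UMIs of a gene in each library, also chosen after seeing the data, 4 of 129 changed, all of Abca1 in T cells or Insig1 in plasma cells. With the clusters of T cells, macrophages and DCs weighted by their share of the untreated UMIs, again chosen after seeing the data, the summed ratios were −0.144, −0.0756 and −0.275 in T cells, −0.454, −0.277 and −0.215 in macrophages, and −0.258 and −0.26 in DCs with anti-LTbR and the combination. Without Pmvk, also chosen after seeing the data, they were −0.682 and −0.38 in macrophages with ADU-S100 and the combination, and −0.16 and −0.48 in DCs. Ch25h in macrophages under the cluster weights turned to 0.102 with ADU-S100 and 0.208 with anti-LTbR. Of 60 member ratios past the limit, 30 were then under 1.5-fold. Of all 67 past the limit, 22 were under it after thinning, 21 with cells named one by one, 16 under median-of-ratios scaling, 16 without cycling cells, 6 at resolution 2, 4 without doublet removal, 2 with members among the clustering genes and 2 without the cell holding most UMIs. The cause of these changes was not tested, other than that the cluster weights hold the shares of the clusters fixed.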
